A study of Homo sapiens with 8 samples.

Results

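The comparison described here is the genotype contrast of the second of 2 independent experiments (batch 2) on cells labelled hTERT-RPE1, a telomerase-immortalised human retinal pigment epithelial line. It uses 4 of the 8 libraries of the series. These are 2 libraries labelled ATF3 knockout and 2 labelled wild type, and each genotype has 1 culture in complete medium (0 h) and 1 that spent 8 h in medium without serine and glycine (S/G-free). The libraries were grouped by their labels. The contrast, its markers and the gene lists were chosen with earlier results of these data known. Medium was a block, and a gene entered when its FPKM was 1 or more in at least 2 of the 4 libraries. That kept 14702 of 57884 listed genes, 11634 of them protein-coding. The nature of the ATF3 allele, and whether each genotype is 1 clone, remain unstated in the labels. The identity of the line is taken from the labels and was not tested; marker and batch values that bear on it are given with the results.

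Epithelial cells hold together through E-cadherin junctions, desmosomes and tight junctions, and fill their cytoskeleton with keratins. Transcription factors such as GRHL2 and OVOL2 and the splicing factors ESRP1 and ESRP2 maintain that state, whereas ZEB, SNAI and TWIST repressors, which bind E-box sequences, oppose it and accompany vimentin, N-cadherin and matrix collagens. ATF3, an ATF/CREB family member, is a transcription factor that many stresses induce. Retinal pigment epithelial lines in culture often carry mesenchymal features.

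The batch 2 libraries had FPKM sums of 3047870 to 3148150, 60.5% to 62.2% of it in small RNA genes, and relative depths, read from the steps between low values, of 0.883 to 1 times that of the wild-type complete-medium library. Absolute depth is unknown. Across genes, the 2 libraries of a genotype correlated at r = 0.969 (wild type) and 0.967 (knockout-labelled), and libraries of different genotypes at 0.895 to 0.917, genes not being independent replicates. Some defining markers of retinal pigment epithelium were at or near 0 in all 4 libraries. RLBP1 was listed at 0 in 3 and at 0.165 FPKM in 1, and TYR and OTX2 at 0 in all. RPE65 lay between 0.230 and 0.695 FPKM. Of 24 matched members of a pigment epithelium list, 7 passed the filter. Of these, 2 were called higher and 1 lower in the knockout-labelled libraries. The list was not silent. In complete and S/G-free medium its FPKM summed to 121 and 105 in wild type and 83.0 and 75.2 in the knockout-labelled libraries. Batch 1 levels of the named markers are not set beside these, so whether their low level is particular to batch 2 was not tested. The 2 wild-type libraries also held 118 and 113 FPKM of TFF1, a secreted mucosal peptide, which was listed at 0 in all 4 libraries of batch 1. The 2 tables were normalized separately, so levels set across batches are descriptions.

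ATF3 mRNA was higher in the knockout-labelled libraries. ATF3 (ENSG00000162772) lies at 212738676 to 212794119 on hg19 chromosome 1, where 2 listed genes overlap. In complete medium its FPKM was 3.65 for wild type and 20.8 for the knockout-labelled library, and in S/G-free medium 18 and 57.3. The knockout-labelled library was the higher one in each medium, and its complete-medium level exceeded the S/G-free level of wild type. The difference, always taken as log2(FPKM + 1) of knockout-labelled minus wild type, was 1.92 ± 0.19 (SE, 2 libraries per genotype; limma adjusted p = 0.0109). Without the medium block the adjusted p was 0.247, and over all alternatives it ran from 9.42e-05 to 0.247 while the difference stayed between 1.62 and 2.23. Whether these transcripts encode protein cannot be read from FPKM, so the libraries are called knockout-labelled throughout.

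Batch 2 separated by genotype label. Epithelial junction, splicing and keratin genes were on the knockout-labelled side, and vimentin, collagen VI and fibrillin-1 on the wild-type side. The mesenchymal lists were mixed. Of 10 tested cytoskeletal genes 3 rose and 3 fell, and of 19 matrix glycoproteins and enzymes 4 rose and 4 fell. Of the genes tested, 1115 (7.58%) rose and 1105 (7.52%) fell at a limma adjusted p under 0.05, 937 (8.05%) and 930 (7.99%) of the protein-coding genes. The shares of 7.58% and 7.52% are the background to every list count given here, and no list was tested against them. The p-values rest on 1 experiment. The only residual is how far the genotype difference varied between the 2 media, so they do not measure variation between experiments. In bulk samples, more cells of a type and more RNA per cell cannot be told apart. Leaving out any 1 of the 4 libraries left 0 calls in limma, with 3136 to 3148 genes at an unadjusted p under 0.05 against 5111 in the same fit with no library left out. With protein-coding genes alone and 1 library left out, 136 to 173 rose and 69 to 75 fell.

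Over all tested protein-coding genes, the genotype difference in complete medium correlated with that in S/G-free medium at r = 0.815, as a description across genes. Called genes have like differences in the 2 media by construction, because the test's residual is the gap between the media. At least 2-fold differences in both media were found for 670 genes that were higher (4.56%) and 418 that were lower (2.84%) in the knockout-labelled libraries. Large differences lay mostly on the higher side: 60 called protein-coding genes were higher by a log2 difference of more than 3 and 15 were lower by as much. The filter adds to this side, since 536 genes passed it only through the knockout-labelled libraries, of which 293 were called, and 385 only through wild type, of which 151 were called.

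**Figure D1:**
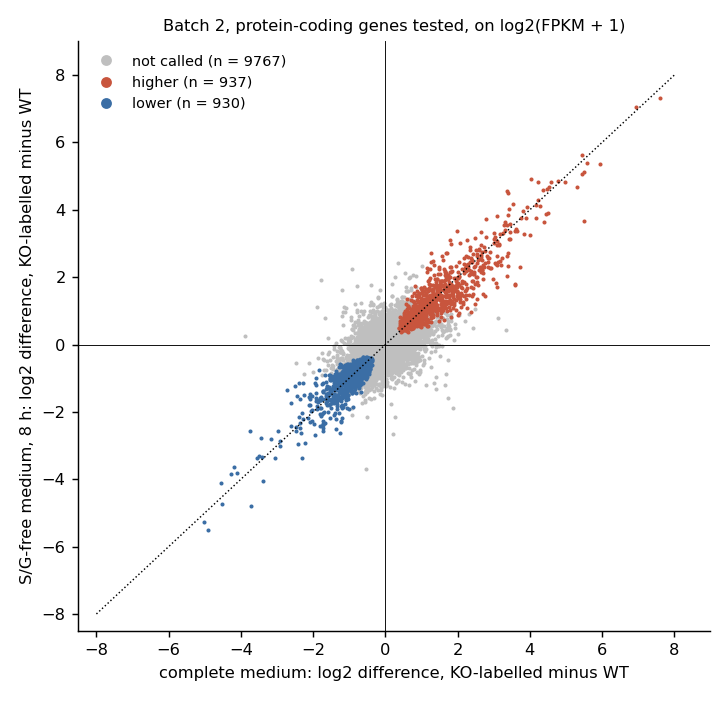
Log2(FPKM + 1) difference, knockout-labelled minus wild type, in complete medium (x axis) against S/G-free medium (y axis) for 11634 protein-coding genes of batch 2, 1 point per gene, with genes called higher in red, called lower in blue and the rest in grey. The dotted line marks equal differences; called genes lie near it because a gap between the media raises their p, so the grey points show how far the media differ.

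Epithelial identity genes were higher in the knockout-labelled libraries. For 4 genes called higher in batch 2, promoters are printed with the sequence that ZEB and SNAI repressors recognise. Whether such repressors act on them was not tested. The 4 genes did not share a level in batch 1, where AP1M2 was at 69.2 to 105 FPKM and CRB3 at 0 to 0.549. CRB3 is a polarity protein, CLDN7 a tight junction claudin, LAD1 an anchoring filament protein of the basement membrane zone, and AP1M2 an epithelial clathrin adaptor subunit. The windows are RefSeq promoters (GRCh38.p14), 250 bases ending just before the annotated start, 5′ to 3′ on the gene's strand, with the E-box CAGGTG or its reverse complement CACCTG in capitals. CRB3 is at chr19:6464021-6464270 (plus strand), CLDN7 at chr17:7262479-7262728 (minus), LAD1 at chr1:201399325-201399574 (minus) and AP1M2 at chr19:10587313-10587562 (minus).
CRB3: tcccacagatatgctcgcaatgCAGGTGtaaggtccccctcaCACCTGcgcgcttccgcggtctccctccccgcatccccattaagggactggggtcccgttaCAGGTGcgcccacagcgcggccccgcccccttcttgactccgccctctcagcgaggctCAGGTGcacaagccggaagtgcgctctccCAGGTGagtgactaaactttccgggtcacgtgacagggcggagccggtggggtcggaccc
CLDN7: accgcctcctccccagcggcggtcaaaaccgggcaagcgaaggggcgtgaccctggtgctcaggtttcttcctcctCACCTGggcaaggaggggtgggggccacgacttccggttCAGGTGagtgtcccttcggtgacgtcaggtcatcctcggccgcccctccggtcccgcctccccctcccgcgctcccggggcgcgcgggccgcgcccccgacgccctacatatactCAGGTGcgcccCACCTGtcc
LAD1: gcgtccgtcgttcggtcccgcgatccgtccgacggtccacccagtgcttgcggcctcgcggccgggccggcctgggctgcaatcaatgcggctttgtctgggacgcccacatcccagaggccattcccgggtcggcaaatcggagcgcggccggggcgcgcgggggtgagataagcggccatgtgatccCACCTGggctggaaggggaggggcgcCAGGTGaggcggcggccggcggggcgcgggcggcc
AP1M2: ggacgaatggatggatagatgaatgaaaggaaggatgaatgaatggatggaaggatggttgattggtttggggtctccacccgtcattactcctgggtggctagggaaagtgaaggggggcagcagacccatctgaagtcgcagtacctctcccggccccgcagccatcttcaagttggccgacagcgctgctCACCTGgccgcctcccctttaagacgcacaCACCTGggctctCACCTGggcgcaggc
CRB3 held 5 matches in its 250 bases, CLDN7 4, AP1M2 3 and LAD1 2. CLDN7 has 2 windows, of which 1 is printed. These 4 were chosen for having matches, and 20.6% of all 34961 RefSeq windows of 300 bases hold the motif on either strand. A comparison over the epithelial lists is void, because windows were found for 26 of the 55 members that rose, and CDH1, EPCAM and ST14 are among those with none. A match is a description of letters and not of a bound site.

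CDH1, E-cadherin, the core of adherens junctions (ENSG00000039068, chromosome 16, 68771128 to 68869451), stood at 0.541 and 1.23 FPKM in wild type in complete and S/G-free medium, against 60.0 and 56.2 in the knockout-labelled libraries. The genotypes were far apart in both media, and the difference was 4.99 ± 0.21 (adjusted p = 0.00218). CDH3, the neighbouring P-cadherin gene, was at 1.38 and 1.16 FPKM against 56.0 and 61.0, with a difference of 4.71 ± 0.16 (adjusted p = 0.00153). EPCAM, an epithelial adhesion molecule (chromosome 2, 47572297 to 47614740), was already present in wild type at 10.7 and 11.5 FPKM and reached 102 and 98.5. Its difference was 3.07 ± 0.11 (adjusted p = 0.00159). Of 16 tested members of an adhesion and desmosome list, 9 rose and 1 fell, with a median difference of 1.16, beside −0.03 over all genes tested. JUP, the junctional plakoglobin, rose from 3.88 and 4.23 to 32.9 and 46.5. The exception was PKP1, a desmosomal plakophilin outside the naming rule, at 72.3 and 77.6 in wild type against 45.9 and 57.2 (difference −0.54, adjusted p = 0.0406). PKP1 lost this call with the replicate block, a fit of both batches with the batch number as a term (adjusted p = 0.078), with median-ratio rescaling (0.0557) and with quantile normalization (0.0625).

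**Figure D2:**
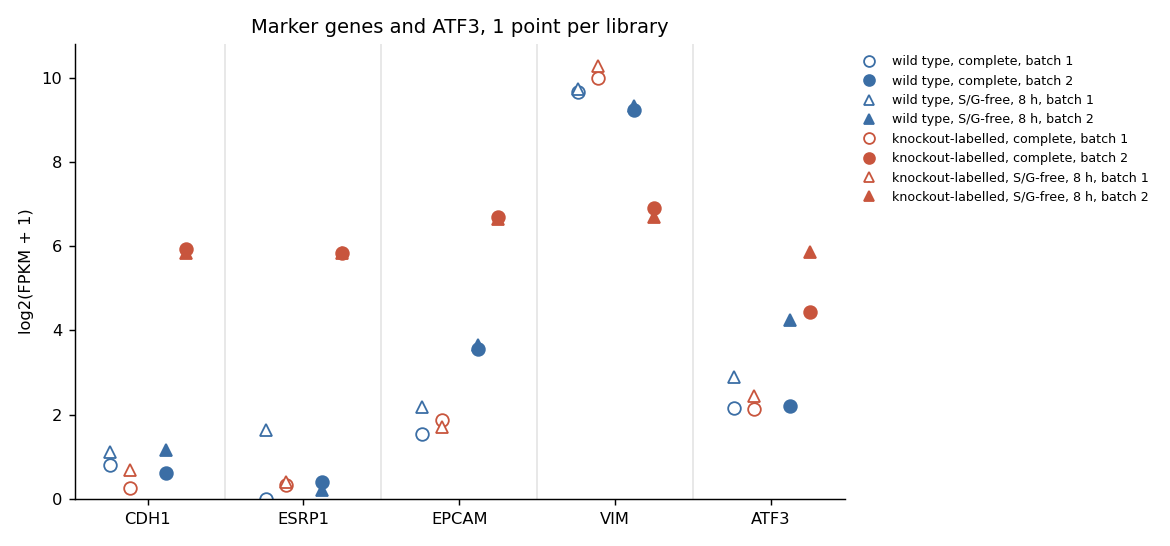
Levels on the log2(FPKM + 1) scale of CDH1, ESRP1, EPCAM, VIM and ATF3, 1 point per library, blue for wild type and red for knockout-labelled, circles for complete and triangles for S/G-free medium, open for batch 1 and filled for batch 2. In batch 2 the knockout-labelled points of CDH1, ESRP1 and EPCAM lie above wild type and those of VIM below, whereas the open points of the 2 genotypes lie much closer together.

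Tight junction and polarity genes were higher as well. Of 19 tested members, 13 rose and 0 fell at the adjusted threshold, with a median of 1.75; all 19 had a positive difference and 4 had passed the filter only through the knockout-labelled libraries. CLDN7 was at 4.55 and 3.90 FPKM in wild type and at 113 and 118 in the knockout-labelled libraries (difference 4.48 ± 0.13, adjusted p = 0.00116). CRB3 was listed at 0.354 and 0 against 30.1 and 24.8. CLDN1 moved with both genotype and medium, from 1.15 to 6.68 FPKM in wild type and from 12.7 to 51.0 in the knockout-labelled libraries, and the S/G-free wild-type library lay below both knockout-labelled ones. Smaller steps were seen for F11R, a junctional adhesion molecule (14.5 and 12.6 against 48.1 and 46.5), and OCLN, occludin (1.47 and 1.35 against 14.8 and 12.4). LSR, which anchors tricellular junctions, lay at 6.24 and 4.01 against 35.6 and 36.2.

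Regulators of the epithelial state had the highest median of the epithelial lists. Of 13 tested, 11 rose and 0 fell, with a median of 2.73, and 7 of the 13 had passed the filter only through the knockout-labelled libraries. The median depended on the settings and was 2.19 without the filter. With a pseudocount of 0.1 it was 3.77, close to the 3.65 of the stratified keratins. ESRP1, a splicing factor that sets epithelial exon choice (chromosome 8, 95653302 to 95719694), was at 0.315 and 0.156 FPKM in wild type and at 55.8 and 56.5 in the knockout-labelled libraries, a difference of 5.53 ± 0.17 (adjusted p = 0.00141). GRHL2, a grainyhead factor that activates junction genes, went from 0.0375 and 0.112 to 20.8 and 12.9 FPKM. Both were thus near 0 in wild type. OVOL2, a zinc finger repressor of mesenchymal genes, was at 0.370 and 0.327 against 12.6 and 15.4. RBM47, an RNA-binding splicing regulator, and EHF, an epithelial ETS factor, rose by 3.29 ± 0.22 and 3.25 ± 0.28 (adjusted p = 0.00504 and 0.00832).

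Surface proteases and trafficking proteins of epithelia followed, with 14 of 18 tested members higher, 0 lower and a median of 2.19; 8 of the 18 had passed only through the knockout-labelled libraries. ST14, matriptase, was at 0.307 and 0.598 FPKM in wild type and at 79.5 and 64.3 in the knockout-labelled libraries (5.65 ± 0.21, adjusted p = 0.00159). LAD1 was at 0.459 and 0.898 against 69.0 and 78.9, and AP1M2 at 0 and 0.0796 against 26.6 and 30.2. In batch 1 AP1M2 stood between 69.2 and 105 FPKM in all 4 libraries, so for this gene the wild-type libraries of batch 2 are the ones that stand apart. MAL2, a transcytosis protein, was abundant in both genotypes at 96.5 and 111 FPKM against 366 and 366. SPINT1, an inhibitor of matriptase, was at 6.78 and 6.05 against 44.5 and 36.5.

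Keratins of simple epithelia were present in both genotypes, with a median difference of 1.51 over 5 tested. KRT8 was at 55.0 and 34.5 FPKM in wild type and at 185 and 148 in the knockout-labelled libraries (1.90 ± 0.12, adjusted p = 0.00458). Its partner KRT18 was at 47.2 and 39.7 against 137 and 109. KRT7 was at 101 and 248 against 433 and 713, higher in S/G-free medium in both genotypes. KRT80 also rose, which makes 4 of 5 tested, and KRT19 missed the threshold at 321 and 216 against 375 and 306 (adjusted p = 0.0886). Of stratified keratins, 6 of 11 did not pass the filter and 3 of the 5 that did passed only through the knockout-labelled libraries. Of those 5, 4 rose, with a median of 1.88 that became 0.74 without the filter: KRT15 was at 4.95 and 2.67 against 19.0 and 13.7, and KRT6A, listed at 0 in both wild-type libraries, was at 7.87 and 6.73. KRT6A and KRT6B share near-identical sequences, and reads may have been split between them. KRT16 lost its call with the replicate block (adjusted p = 0.0742).

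Mesenchymal genes were mixed, with collagens, surface receptors and several repressors lower. VIM, vimentin, the main mesenchymal intermediate filament (chromosome 10, 17256238 to 17279592), was at 598 and 638 FPKM in wild type and at 118 and 102 in the knockout-labelled libraries, a difference of −2.48 ± 0.11 (adjusted p = 0.00243). It remained well above 0 in each library. Of 10 tested cytoskeletal genes 3 fell (VIM, ACTN1 and TAGLN2) and 3 rose (MYL9, CNN2 and TAGLN). TAGLN, transgelin, a smooth muscle actin-binding protein, went the other way from VIM, at 1.5 and 1.66 against 4.96 and 16.7 FPKM.

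Of 7 tested factors of the epithelial-mesenchymal transition, 4 fell and 1 rose. ZEB1, a repressor of CDH1, was at 9.97 and 12 FPKM in wild type against 3.08 and 4.26 in the knockout-labelled libraries (−1.37 ± 0.17, adjusted p = 0.0176). SNAI2, another such repressor, was at 15.5 and 21.5 against 4.58 and 6.90, and TWIST1 at 12.8 and 12.6 against 7.07 and 5.39. TWIST2 was listed at 0 in both knockout-labelled libraries and at 1.33 and 1.43 in wild type. FOXC1 rose from 1.43 and 2.36 to 3.98 and 6.85. ZEB1 and SNAI2 were reduced but present.

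Surface receptors typical of mesenchyme fell in 6 of 13 tested cases and rose in 0. AXL, a receptor tyrosine kinase, was at 79.2 and 99.0 FPKM in wild type against 28.6 and 38.3 in the knockout-labelled libraries (−1.39 ± 0.10, adjusted p = 0.00586). CDH2, N-cadherin, was at 28.7 and 44.3 against 14.5 and 20.7, so CDH1 and CDH2 were both present in the knockout-labelled libraries. CDH11, a mesenchymal cadherin, was at 160 and 131 against 59.0 and 29.7. FGFR1, PDGFRA and NT5E made up the rest, and NT5E lost its call with the replicate block (adjusted p = 0.0555) and with both rescalings.

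Among fibrillar and basement membrane collagens 6 of 14 fell and 1, COL17A1 of hemidesmosomes, rose, with a median of −0.80. The 3 collagen VI chains moved together: COL6A3 was at 36.0 and 31.4 FPKM in wild type and at 3.13 and 3.67 in the knockout-labelled libraries (−2.98 ± 0.17, adjusted p = 0.00371). COL6A2 was at 335 and 386 against 143 and 144, and COL6A1 at 132 and 155 against 68.5 and 67.9. FBN1, fibrillin-1, was at 25.6 and 27.4 against 1.45 and 3.18. Matrix glycoproteins and enzymes nevertheless split evenly, with 4 higher and 4 lower of 19 tested. Among the higher ones TIMP1, a metalloproteinase inhibitor, was at 172 and 173 against 614 and 592, and VCAN, versican, at 0.882 and 1.13 against 17.3 and 23.7.

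**Figure D3:**
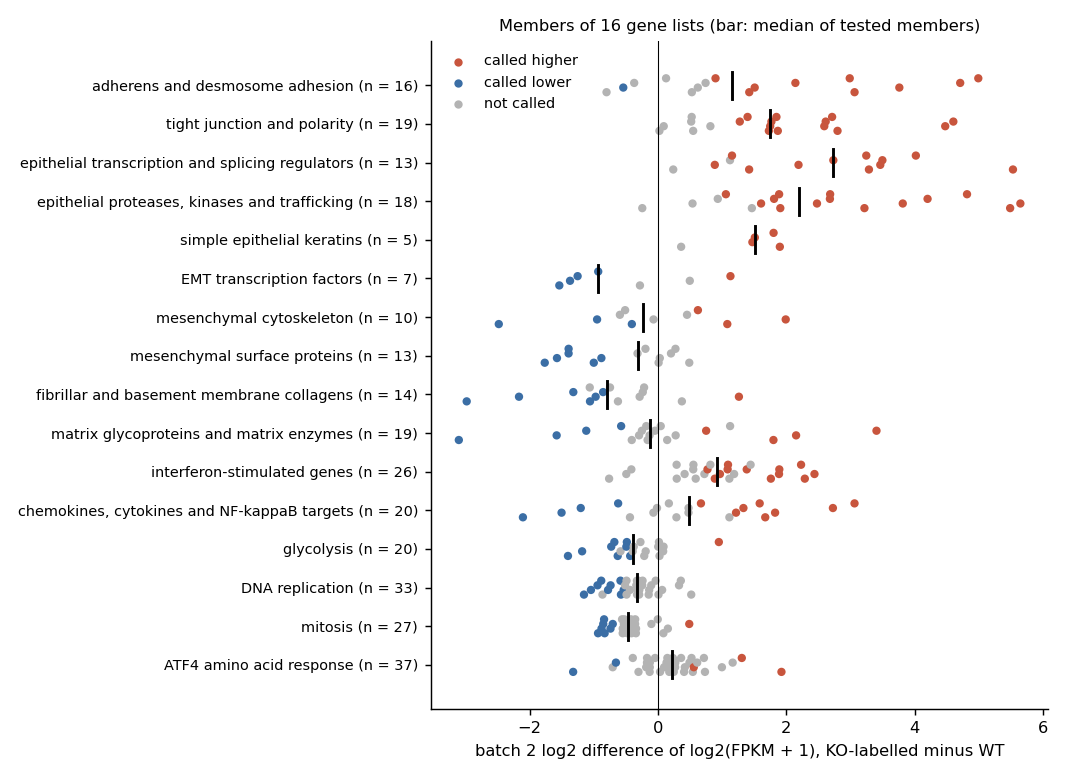
Batch 2 log2(FPKM + 1) differences, knockout-labelled minus wild type, of the tested members of 16 gene lists, 1 point per gene, red for called higher, blue for called lower and grey for not called, with a black bar at the list median. The medians of the epithelial lists lie between 1.16 and 2.73, those of collagens at −0.80, and that of the ATF4 list at 0.22.

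Among 20 genes of TGF-beta and YAP signalling, 3 rose and 3 fell, with a median of −0.003. LTBP1, which stores latent TGF-beta in the matrix, fell from 66.9 and 77.8 FPKM in wild type to 11.2 and 13.5 in the knockout-labelled libraries, and the receptor TGFBR2 from 27.8 and 42.4 to 12.6 and 14.5. The other gene that fell had the lowest difference of the list, −5.22, and is not named here. The ligand TGFB2 and the target THBS1, thrombospondin-1, went the other way: TGFB2 was at 7.66 and 21.9 against 51.4 and 106, and THBS1 at 15.7 and 101 against 170 and 412. For both, the S/G-free library exceeded its complete-medium partner in each genotype. Ligands, receptors and targets of the pathway thus did not share a direction.

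Integrins moved in both directions, with 5 of 9 tested higher and 2 lower. ITGB6, an epithelial integrin chain that activates latent TGF-beta, was at 0.0952 and 0.13 FPKM in wild type and at 6.71 and 6.04 in the knockout-labelled libraries. ITGB4, the hemidesmosome chain, was at 7.10 and 6.31 against 19.8 and 16.7. Its partner ITGA6 fell from 93.5 and 84.7 to 38.1 and 36.1, and ITGA3 fell from 151 and 197 to 97.2 and 108, a call lost with the replicate block (adjusted p = 0.0511).

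Under the naming rule, and with a pseudocount of 1, the largest rises were in S100A9 and LCN2, secreted proteins of innate defence that inflamed epithelia and neutrophils make. S100A9, a subunit of calprotectin, was at 1.52 and 1.15 FPKM in wild type and at 494 and 342 in the knockout-labelled libraries (7.46 ± 0.13, adjusted p = 0.000302). LCN2, lipocalin-2, which binds bacterial siderophores, was at 7.66 and 8.96 against 1067 and 1329 (7.0 ± 0.09, adjusted p = 0.000271). Of 6 matched haematopoietic markers 0 passed the filter, and their summed level was 0.496 to 1.05 FPKM per library. ASS1, argininosuccinate synthase, was at 1.92 and 1.94 against 91.3 and 82.8. FXYD3, a regulator of the sodium pump, was listed at 0 in wild type and stood at 42.5 and 32.6. With a pseudocount of 0.1 the order changed: FXYD3 came first at 8.54, S100A9 was at 8.17, and AP1M2, CA9 and ESRP1 at 7.73, 7.47 and 7.43 lay above LCN2 at 7.15.

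On the wild-type side, EPB41L3, a membrane skeleton protein, was at 53 and 74.7 FPKM against 0.670 and 0.968 in the knockout-labelled libraries (−5.14 ± 0.16, adjusted p = 0.00142). EPB41L3 did not have the lowest difference of all, since a gene of the TGF-beta and YAP list, not named here, lay at −5.22. ANPEP, aminopeptidase N, was at 34.1 and 29.3 against 0.50 and 0.741, and PLAT, the tissue plasminogen activator, at 103 and 137 against 8.89 and 7.32. GBX2, a homeobox factor, was at 22.7 and 26.0 against 0.371 and 0.906, and was listed at 0 in all 4 libraries of batch 1. LRRC38 was at 22.1 and 25.8 in wild type and listed at 0 in the knockout-labelled libraries.

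**Figure D4:**
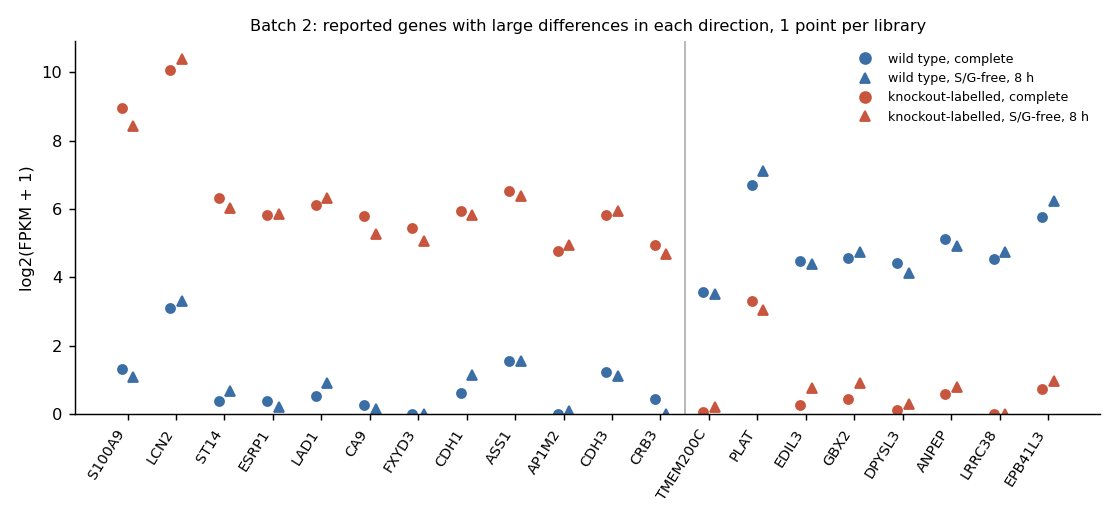
Levels on the log2(FPKM + 1) scale in batch 2 of 20 reported protein-coding genes with large differences under the naming rule, 12 higher (left) and 8 lower (right), 1 point per library, blue for wild type, red for knockout-labelled, circles for complete and triangles for S/G-free medium. The rule chose these genes for a large difference in both media, and for each of the 20 the 2 points of a genotype lie closer to each other than to the points of the other genotype.

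Interferon-stimulated genes rose in 12 of 26 tested cases and fell in 0, with a median of 0.93. IFI6 was at 41.0 and 37.5 FPKM in wild type and at 189 and 203 in the knockout-labelled libraries (2.29 ± 0.10, adjusted p = 0.00256). OAS1, a sensor of double-stranded RNA, was at 3.76 and 2.44 against 22.3 and 19.7, and IRF9, a subunit of the interferon response complex, at 5.65 and 9.69 against 21.8 and 41.6. HLA-B and HLA-C, class I antigen-presenting chains that resemble each other, rose to 85.7 and 84.1 and to 79.5 and 72.4, from 34.5 and 31.8 and from 40.8 and 35.5. Antigen presentation had 3 of 13 tested genes higher and 0 lower.

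Cytokine genes split, with 8 higher and 4 lower of 20 tested. IL6 stood at 3.52 FPKM in complete medium and 53.8 in S/G-free medium in wild type, and at 46.9 and 361 in the knockout-labelled libraries (3.06 ± 0.19, adjusted p = 0.00449). CXCL5, a neutrophil-attracting chemokine, was at 28.0 and 70.4 against 82.2 and 223, whereas its relative CXCL6 fell from 114 and 146 to 38.7 and 52.0. IL6 and CXCL5 were higher in S/G-free medium in both genotypes.

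Among ATF, C/EBP and CREB family genes 2 of 18 rose, ATF3 itself and its dimer partner JDP2, and 0 fell. The share that rose was 11.1%, beside 7.58% of all genes tested. JDP2, a repressor that binds the same sites, was at 0.393 and 3.05 FPKM in wild type and at 10.8 and 20.0 in the knockout-labelled libraries (2.72 ± 0.25, adjusted p = 0.00923). Of 37 tested targets of ATF4, the amino acid response factor upstream of ATF3, 3 were called higher and 2 lower. Together these were 13.5%, beside 15.1% of all genes tested that were called either way. The list median was 0.22, and 25 of the 37 differences were positive. By medium the median was 0.51 in complete and −0.05 in S/G-free medium. STC2, a secreted stress glycoprotein, was at 25.3 and 148 against 138 and 406, GDF15 at 11.2 and 31.2 against 41.8 and 55.4, and HERPUD1 at 19.0 and 46.7 against 30.2 and 65.5. CTH, which makes cysteine from cystathionine, fell from 10.6 and 26.3 to 4.66 and 7.98, and PSPH, the last enzyme of serine synthesis, from 32.8 and 81.2 to 23.9 and 44.2. With the replicate block HERPUD1 and PSPH lost their calls (adjusted p = 0.0703 and 0.0721), PSPH also with both rescalings. All 5 were higher in S/G-free than in complete medium in both genotypes. Immediate early genes moved apart, with JUNB at 23.6 and 42.7 against 81.4 and 101, and the MAP kinase phosphatase DUSP5 at 36.5 and 57.5 against 11 and 16.5.

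Some proliferation genes were lower in the knockout-labelled libraries. Of 33 replication genes 9 fell and 0 rose, of 44 replication-dependent histone genes 16 fell and 0 rose, and of 27 mitosis genes 7 fell and 1, UBE2C, rose. Beside these counts, 7.52% of all genes tested fell. RRM1, a ribonucleotide reductase subunit, was at 64.8 and 62.4 FPKM in wild type and at 29.9 and 30.8 in the knockout-labelled libraries (−1.04 ± 0.10, adjusted p = 0.0107). TYMS, thymidylate synthase, was at 30.7 and 22.4 against 11.7 and 10.8. CDKN1A, the p21 inhibitor of cyclin-dependent kinases, rose from 8.61 and 29.9 to 37.2 and 89.9. Of 18 p53 target genes 2 were higher (11.1%) and 0 lower, beside 7.58% of all genes tested that rose.

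In energy metabolism, glycolysis fell in 8 of 20 tested genes and rose in 1, SLC2A1, the glucose transporter GLUT1, whose call was lost with the replicate block (adjusted p = 0.0555). HK1, hexokinase 1, was at 84.4 and 92.3 FPKM in wild type against 34.7 and 31.0 (−1.40 ± 0.12, adjusted p = 0.00815), and PGK1 at 972 and 766 against 601 and 483. Hypoxia genes rose in 5 of 16 and fell in 2. CA9, a hypoxia-induced carbonic anhydrase, was at 0.215 and 0.105 against 54.1 and 37.3. CA12, another carbonic anhydrase, fell from 10.1 and 5.75 to 2.23 and 1.17. NDRG1, a stress-response gene, was at 173 and 53.1 against 503 and 144.

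The same contrast gave fewer calls in batch 1, and the difference between batches was tested in 1 limma fit of all 8 libraries. The batch difference, the batch 2 contrast minus that of batch 1, was larger in batch 2 for 366 of 17994 genes (2.03%) and smaller for 172 (0.956%). Of the genes called higher in batch 2, 313 were among the first set, and 157 of those called lower were among the second. The batch difference contains the batch 2 contrast, so this overlap is partly built in and is only a description. Within batch 1 alone 24 of 16018 genes (0.15%) were called, 5 of them protein-coding. Some list medians had the same sign in batch 1 and batch 2. They were −0.28 and −0.38 for glycolysis, 0.33 and 0.48 for mitochondrially encoded proteins, and −0.22 and −0.46 for mitosis. Others had opposite signs, such as tight junction and polarity genes (−0.31 and 1.75) and collagens (0.18 and −0.80). For hypoxia genes the batch 1 median was the larger in size (−0.62 and 0.08). Over 10809 protein-coding genes tested in both batches the 2 contrasts correlated across genes at r = 0.00089 (Spearman 0.031), and the SD of the differences was 0.587 in batch 2 and 0.345 in batch 1. Of 1543 protein-coding genes called in batch 2, 50.9% had the same sign in batch 1, beside 52.3% of all protein-coding genes tested in both.

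Marker genes illustrate this. In batch 1 VIM stood at 809 and 856 FPKM in wild type and at 1018 and 1247 in the knockout-labelled libraries, and its batch difference was −2.92 ± 0.16 (adjusted p = 0.0142). CDH1 was at 0.737 and 1.15 against 0.201 and 0.618 in batch 1, with a batch difference of 5.46 ± 0.32 (adjusted p = 0.0147). For EPCAM the batch difference was 3.15 ± 0.32 (adjusted p = 0.0317) and for ESRP1 5.98 ± 0.58 (adjusted p = 0.0308). ATF3 had a batch difference of 2.16 ± 0.31, and lay just above the threshold (adjusted p = 0.050). Leaving out any 1 library left 0 calls of the batch difference, with 2979 to 3723 genes at an unadjusted p under 0.05.

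**Figure D5:**
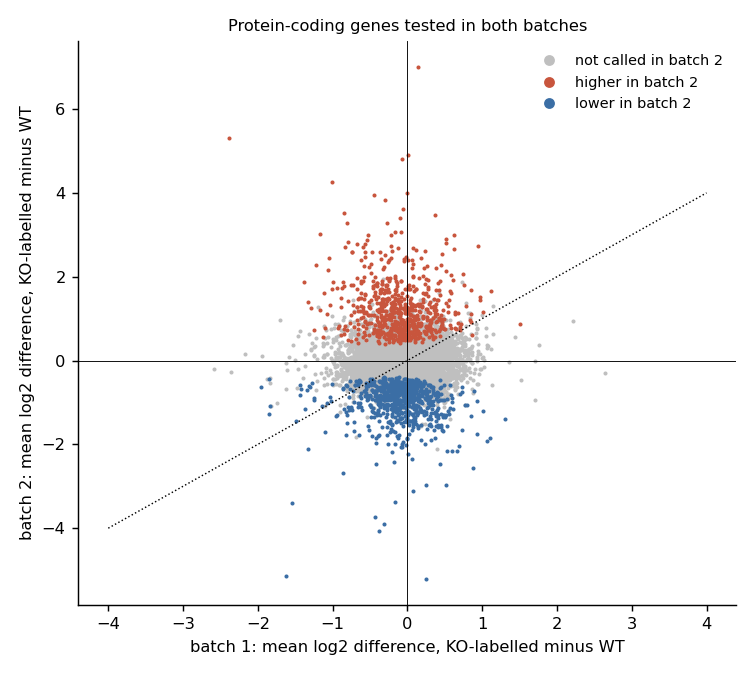
Mean log2(FPKM + 1) difference over the 2 media, knockout-labelled minus wild type, in batch 1 (x axis) against batch 2 (y axis) for 10809 protein-coding genes tested in both batches, 1 point per gene, coloured by the batch 2 call, with a dotted line where the 2 are equal. Called genes spread along the batch 2 axis and not along the line.

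Some genes of batch 2 were near absent in one genotype and present in the other. At 10 FPKM or more in both libraries of a genotype and below 0.5 in both of the other, 18 protein-coding genes were high in the knockout-labelled libraries and 3 (DPYSL3, LRRC38 and TMEM200C) in wild type, while batch 1 had 0 of either kind. Of the 18, 3 were at 10 FPKM or more in all 4 libraries of batch 1 and 6 were below 0.5 in all 4. MAGEA12, a cancer-testis gene, is one of those present in batch 1, at 51.0 to 59.9 FPKM, with 0.0843 and 0.0840 in batch 2 wild type and 15.5 and 17.3 in the knockout-labelled libraries. DPYSL3, a cytoskeletal regulator, was at 20.3 and 16.5 FPKM in batch 2 wild type, 0.0952 and 0.226 in the knockout-labelled libraries, and 18.4 to 25.6 in batch 1. Neither genotype of batch 2 therefore matched batch 1 at all of these genes. Across the batches, 54 protein-coding genes were high in all libraries of batch 1 and near absent in all of batch 2, and 32 the reverse. The part of line or clone differences in the genotype contrast was not tested, and within batch 2 they cannot be told apart from the genotype label.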

How the data were processed

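Total RNA of 8 cultures was sequenced, and the authors deposited FPKM values in 2 tables of 57884 Ensembl genes, 1 per batch. The submitters' processing notes name TopHat, Cufflinks, Cuffdiff and hg19; for versions, strandedness and scaling they are silent. Because FPKM is per transcript length, short RNAs take large values, and an exact 0 can be a failed estimate. Overlapping genes and near-identical copies may have shared reads. Groups and batch numbers came from the titles, and the series text states that a number marks 1 batch of treated cells.

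Limma 3.58.1 (R 4.3.3) was fitted to log2(FPKM + 1) of the 4 batch 2 libraries with medium as a block and a trended empirical Bayes prior, which left 1 residual and 3.57 prior degrees of freedom. Two-sided p-values were adjusted by Benjamini-Hochberg over 14702 genes, with a threshold of 0.05. A pseudocount of 1 understates the change of low genes. The batch difference used all 8 libraries, with medium and genotype terms within each batch. Gene types came from GENCODE 29 by gene ID and matched 96.7% of tested genes. On simulated data (14702 genes, 200 of them changed), 22 of 100 genes changed by a log2 difference of 1 were called. Of 100 changed by 2, 89 were called, and 14 unchanged genes were called beside these. The share called depends on how many genes change, and the contrast itself had 2220 calls. The simulation therefore does not give the power of this contrast.

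The contrast, its markers, the 46 gene lists and the naming rule were chosen with earlier results of these data known. The rule took ATF3, the 4 markers, up to 12 protein-coding genes per direction (adjusted p under 0.05, log2 difference of 1 or more in both media, FPKM of 10 or more in both libraries of the higher genotype), the 6 members of each list with the smallest p, and up to 6 genes per direction of the batch difference. Genes that complete a count of 5 or fewer, markers that did not pass the filter and examples of chromosomes or of the 10 and 0.5 FPKM comparison were named after their values were seen. The rule names more genes than are reported here. RefSeq promoters (GRCh38.p14) were matched by symbol. As alternatives, other filters, pseudocounts, scalings, priors and blocks were used and single libraries were left out.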

Additional observations from a re-analysis of the deposited data

Results flagged for a closer look

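The results below stand out because the genotype contrast differed between the 2 batches by a test of the difference itself, the interaction of batch and genotype in the 8-library limma fit. The contrast was larger in batch 2 for 366 genes and smaller for 172. Among the genes named for it, the batch difference on the log2(FPKM + 1) scale was 7.70 for CA9, 7.24 for S100A9, 6.86 for LCN2, 5.98 for ESRP1, 5.90 for ST14, 5.46 for CDH1 and 3.15 for EPCAM. It was −2.92 for VIM, −3.60 for EDIL3, −3.67 for DPYSL3 and −4.45 for ANPEP. CA9 differed in both batches and in opposite directions: in batch 1 it stood at 9.24 and 11.9 FPKM in wild type and 0.12 and 3.27 in the knockout-labelled libraries. EDIL3, a matrix protein that binds integrins, was at 21.2 and 19.9 against 0.217 and 0.691 in batch 2 and at 60.0 and 62.4 against 54.9 and 44.1 in batch 1. Each batch holds 2 libraries per genotype, so the batches are single experiments, and what sets them apart was not tested.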

How the results depend on the processing

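The direction of the 116 tested genes named here did not change under any alternative run, except that PAX6, not called, ranged from −0.37 to 0.82 when 1 library was left out. The counts of the batch 2 contrast (1115 higher, 1105 lower) depended on the prior and on the number of libraries. They were 402 and 269 without the medium block, 681 and 449 with a prior without trend, 1697 and 1871 over protein-coding genes alone, and 0 and 0 without a filter, where limma had 5135 genes at an unadjusted p under 0.05. They were 0 in each leave-one-out fit, which drew on the other 7 libraries of both batches, had 1 residual degree of freedom and took a lone sample to vary like the others. With protein-coding genes alone, an alternative chosen after the data were seen, leaving out 1 library gave 136 higher and 70 lower without wild type in complete medium, 168 and 75 without wild type in S/G-free medium, and 158 and 70 or 173 and 69 without the knockout-labelled library in complete or S/G-free medium. At least 2-fold differences in both media went to 629 lower with a pseudocount of 0.1, and to 399 higher and 274 lower with an FPKM minimum of 5. The batch difference (366 larger, 172 smaller) became 132 and 78 with a pseudocount of 0.1, 312 smaller with the stricter filter, 96 smaller without the trend, and 0 and 0 without a filter (5557 at an unadjusted p under 0.05) or in each leave-one-out fit. The other scaling, filter and pseudocount alternatives kept these counts within 1.5 times.

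The replicate number marks the batch, and the replicate block fit over all 8 libraries gave 1187 higher and 1258 lower. Of 113 called genes named here it lost 7: PSPH (adjusted p = 0.0721), HERPUD1, ITGA3, KRT16, NT5E, PKP1 and SLC2A1. With a shared medium term and the replicate block, the batch difference was larger for 477 genes and smaller for 226. Median-ratio rescaling lost 4 of these calls, quantile normalization 5, a pseudocount of 0.1 3, a robust prior 2, a prior without trend 16, dropping the medium block 50, and dropping the filter all 113, as did each leave-one-out fit. No scaling moved the median of all genes by over 0.1. Each genotype rests on 2 cultures of 1 experiment, and absolute depth is unknown, so no counting interval is given.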

Other observations

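Protein-coding genes of some chromosomes differed together in batch 2. The median log2(FPKM + 1) difference, knockout-labelled minus wild type, was 0.39 over 328 tested genes of chromosome 20, where 82 rose and 14 fell, and it was 0.36 in complete and 0.35 in S/G-free medium. Chromosome 9 had a median of 0.27 (59 rose, 10 fell of 467), chromosome 8 of 0.23 (67 and 11 of 416) and chromosome 16 of 0.16 (43 and 10 of 527). On the other side, chromosome 21 had −0.37 (3 rose and 23 fell of 116), chromosome 15 −0.28 (29 and 62 of 377) chromosome 18 −0.26 (11 and 44 of 173), chromosome 5 −0.20 (21 and 61 of 526), chromosome 7 −0.19 (30 and 64 of 554) and chromosome 1 −0.16 (75 and 120 of 1179). The other 13 chromosomes lay between −0.11 and 0.08. In batch 1 the medians of all 23 lay between −0.19 (chromosome 18) and 0.11 (chromosome 19). Genes of a chromosome are not replicates, no test was made, and the cause was not tested.

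Markers of other tissues were tested as lists. Intestinal, lung, melanocyte, endothelial and haematopoietic lists had 0 members above the filter. Of 10 breast luminal genes 6 passed, and all 6 were detected in both genotypes: TFF1 fell from 118 and 113 to 49.2 and 36.4 FPKM, while AGR2, a disulfide isomerase of secretory epithelia, rose from 27.7 and 16.2 to 103 and 77.1. HOXB13, a posterior homeobox factor, was at 28.3 and 12.7 in wild type against 10.2 and 3.20 (adjusted p = 0.0123), and PRAME fell from 12.9 and 5.29 to 3.52 and 1.65. PAX6, an eye field factor, was at 5.2 and 12.8 against 9.94 and 9.71 in batch 2 and between 0.0197 and 0.231 in batch 1. Smaller lists gave SERPINA1 higher (hepatocyte, 1 tested), TRIM29 higher (squamous, 2 of 3 higher, both tested only through the knockout-labelled libraries, with a list median of 3.0 that became 0.12 without the filter) and NES lower (neural, 1 tested). The single tested genes of the kidney and pluripotent lists were not called, and of 3 tested prostate genes HOXB13 fell.

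Mitochondrially encoded proteins had 4 of 13 genes higher and 0 lower (median 0.48), cholesterol synthesis 2 of 22 and 0, and NRF2 targets 2 and 4 of 18. Metallothioneins had 0 and 1 of 6, G1 control 1 and 2 of 16, and growth factor receptors 3 and 3 of 14. HOX genes had 1 and 2 of 13 and cancer-testis genes 1 and 1 of 2. Of all genes tested, 7.58% rose and 7.52% fell, and no list was tested against these shares. TXNRD1 and AKR1B10 moved oppositely within the NRF2 list: TXNRD1, thioredoxin reductase, fell from 314 and 363 FPKM to 133 and 183, and AKR1B10, an aldo-keto reductase, rose from 0.788 and 0.487 to 11.8 and 7.13. MT-ND1 was at 85.3 and 59.2 against 126 and 118. MT1M, a metallothionein, was at 1.78 FPKM in complete and 59.4 in S/G-free medium in wild type. In the knockout-labelled libraries it was listed at 0 and stood at 22.5. Its call was lost with a pseudocount of 0.1 (limma adjusted p = 0.0752).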
